A study of Fagopyrum tataricum with 9 samples.

Results

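The genes described here are 30 Tartary buckwheat genes that the study annotated as flavonoid hydroxylases and flavonoid glucosyltransferases, out of 33940 genes measured. They are all the gene IDs in 3 classes of the study's flavonoid gene list, namely 11 flavonoid 3'-monooxygenase genes, 5 flavonoid 3',5'-hydroxylase genes and 14 UDP-glucose flavonoid 3-O-glucosyltransferase genes, and all 30 IDs were found in the data. The study listed these genes by annotation, with their levels in these same libraries, so the list is not independent evidence that its genes change. RNA was sequenced from whole seeds of Fagopyrum tataricum cultivar XIQIAO NO.2 grown in 1 field, with 3 libraries each at 13 days post anthesis (DPA, green fruit stage), 19 DPA (discoloration stage) and 25 DPA (initial maturity stage), and no treatment or second genotype was compared. Each stage was sampled from 3 plants and each plant gave all stages, but the labels do not say that the replicate number marks the plant. A whole seed holds seed coat, embryo and endosperm, and in such bulk samples fewer cells of a type and less RNA per cell cannot be told apart.

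Flavonoid 3'-monooxygenases (F3'H) and flavonoid 3',5'-hydroxylases (F3'5'H) are related cytochrome P450 enzymes that add hydroxyl groups to the B-ring of flavonoids. F3'H opens the way to quercetin and cyanidin, and F3'5'H to myricetin and delphinidin. UDP-glucose flavonoid 3-O-glucosyltransferases (UFGT) move glucose from UDP-glucose to the 3-hydroxyl group of flavonols and anthocyanidins, which makes them more soluble and more stable. Rutin, the flavonoid for which Tartary buckwheat is best known, is quercetin with a glucose and a rhamnose attached at that position, so both kinds of step precede it. The class names are annotations. Enzyme activity, substrate preference, sequence and genome position of the members were not analysed here.

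The libraries held 22002318 to 25811462 counts. The 10 most abundant genes of a library took 5.82% to 18% of its counts in the 13 DPA libraries, 29.3% to 36.5% in those of 19 DPA and 33.9% to 35.9% in those of 25 DPA, and the TMM factors that allow for this were 1.31 to 1.81, 0.733 to 0.971 and 0.652 to 0.788. With total counts in place of TMM, the median log2 fold change over every gene in the test was -0.85 for 19 vs 13 DPA, -0.32 for 25 vs 19 DPA and -1.19 for 25 vs 13 DPA, against -0.03, -0.02 and -0.07 with TMM. The level used below is the scaled FPKM, the deposited FPKM (fragments per kilobase of gene, set against the library total) after TMM scaling. It was used to compare genes and libraries. Between libraries the comparison rests on the TMM factors, and some results below differ in the deposited FPKM. Replicate 2 at 13 DPA stood apart from the other libraries of its stage, with the 18% above. It had the highest scaled FPKM of its stage for 17 of the 18 members tested. Its TMM factor, 1.31, was the lowest of its stage. In the deposited FPKM it was not the highest for some of these, such as FtPinG0002353900.01 (50.2 against 57.5 and 57.1). The same count over all genes was not made. A few storage protein genes that the study names were looked at for the labelled tissue. The glutelin genes FtPinG0000417000.01 and FtPinG0008579200.01 had deposited FPKM of 2.69 to 30.2 and 35.8 to 166 over the libraries. The 11S globulin gene FtPinG0004288700.01 had 0 to 2.87, with 1, 0 and 3 counts at 13 DPA, too few to check the tissue there. The study's other globulin genes were not looked at here.

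Of the 30 members, 18 passed the count filter and were tested, namely 4 F3'H, 2 F3'5'H and 12 UFGT genes. The other 12 stayed below a mean of 1 deposited FPKM at every stage. FtPinG0008925900.01 and FtPinG0003628300.01 (F3'H) and FtPinG0003631500.01 (F3'5'H) had no count in any library, which allows up to 3 counts per library. The remaining 9 had 1 to 47 counts over all libraries. FtPinG0001470800.01, FtPinG0003630100.01, FtPinG0003632500.01, FtPinG0001471000.01 and FtPinG0003630300.01 of the F3'H class had 1 to 15 counts in total, and FtPinG0003632300.01 (F3'5'H) had 5. FtPinG0003628700.01 (F3'5'H) had 38 counts, all of them in replicate 3 at 13 DPA. Among the UFGT genes FtPinG0003186900.01 had 1 count, and FtPinG0007577000.01 had 47 counts spread over all the libraries at 3 to 8 each. Most of the hydroxylase genes were therefore near the limit of detection in these seeds, while 12 of the 14 UFGT genes were measured well enough to test. Of the members, 8 reached a mean of 10 deposited FPKM at a stage, 3 of them F3'H, 1 F3'5'H and 4 UFGT genes.

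At the discoloration stage compared with green fruit, 7 of the 18 tested members were differentially expressed genes (DEGs, FDR of at most 0.05 and a fold change of at least 2 in either direction, that is 1 on the log2 scale), against 8.57% of all genes tested. Of these, 6 were higher at 19 DPA (all genes, 4.11%) and 1 was lower (all genes, 4.46%). At initial maturity compared with discoloration, 13 members were DEGs against 28.8% of all genes, 7 of them higher (all genes, 9.27%) and 6 lower (all genes, 19.5%). At initial maturity compared with green fruit, 12 members were DEGs against 42.2% of all genes, 8 higher (all genes, 16.6%) and 4 lower (all genes, 25.6%). The shares of the tested members that were DEGs were thus 38.9%, 72.2% and 66.7%, each above the share of all genes. The members were not drawn at random and passed a filter on low counts, so these shares support nothing about the annotation. The median log2 fold change of the tested members was 0.68 for 19 vs 13 DPA, -0.67 for 25 vs 19 DPA and 0.71 for 25 vs 13 DPA. The 3 comparisons share their libraries, and 16 members were DEGs in at least 1 of them.

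The counts of DEGs changed with the scaling and, for the first step, with the libraries in the fit. With total counts in place of TMM the DEGs were 2 higher and 3 lower at 19 vs 13 DPA (all genes on that scale, 2.52% and 31.2%), 4 higher and 8 lower at 25 vs 19 DPA (all genes, 5.16% and 23.4%), and 7 higher and 8 lower at 25 vs 13 DPA (all genes, 6.22% and 53%). The lower members were then below the share of all genes at 19 vs 13 DPA and at 25 vs 13 DPA, and no DEG turned its direction. The median log2 fold change of the tested members then turned to -0.12 at 19 vs 13 DPA and -0.35 at 25 vs 13 DPA, both above the median of all genes on that scale, and was -0.92 at 25 vs 19 DPA, below it. The 7 DEGs of 19 vs 13 DPA became 1, 6 and 2 when replicates 1, 2 and 3 of 13 DPA were left out in turn, 3 with any 1 of the 19 DPA libraries left out, and 4, 4 and 3 with replicates 1, 2 and 3 of 25 DPA left out. With all libraries, 4 of the 7 had an FDR of 0.0362 to 0.0483, and the log2 fold changes of the 7 kept their direction whichever library was left out, as for FtPinG0001031700.01 with 0.92 to 1.44 against 1.10 with all libraries. The 13 DEGs of 25 vs 19 DPA became 8 without 25 DPA replicate 1, and those of 25 vs 13 DPA stayed at 11 to 13 whichever library was left out.

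**Figure D1:**
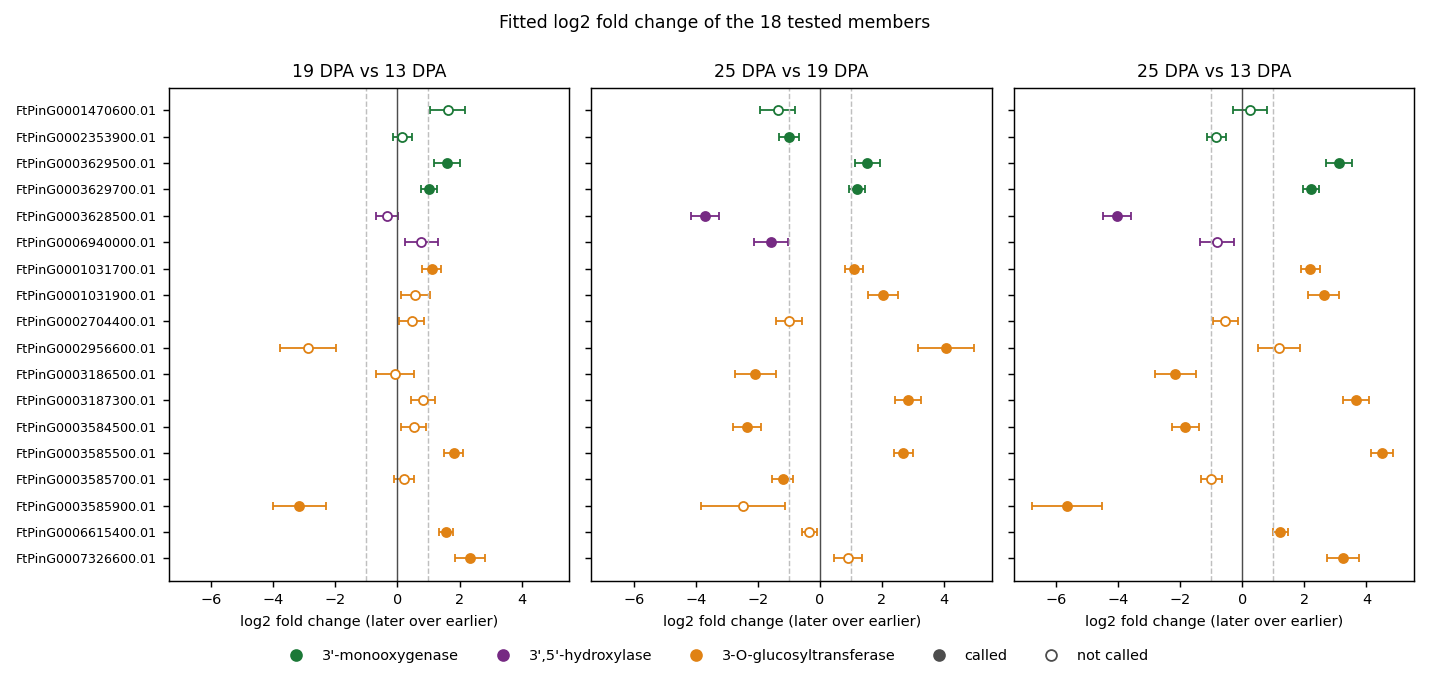
Fitted log2 fold change (horizontal axis, later over earlier stage) with its standard error for the 18 tested members (rows, colored by class) in each comparison. Filled points are DEGs and dashed lines mark a log2 fold change of -1 and 1. The 12 DEGs of 25 vs 13 DPA are 8 to the right of 0 and 4 to the left.

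On the scaled values, a pair of the F3'H genes rose at each step while the most abundant member fell at the last one. FtPinG0002353900.01, the F3'H gene that the study chose for RT-qPCR, had 35.8, 38.4 and 31.6 scaled FPKM in the libraries of 13 DPA, 31.5, 59.1 and 27.4 by 19 DPA and 14.8, 25.3 and 18.9 by 25 DPA. All libraries of 25 DPA were below all those of the other stages. Its level fell at 25 vs 19 DPA, with a log2 fold change of -1.0 (SE 0.31, FDR 0.0308). Its FDR became 0.0922 when 19 DPA replicate 2 was left out, 0.107 when this was 25 DPA replicate 1 and 0.0875 when it was 25 DPA replicate 3, with log2 fold changes of -1.24 to -0.58 over all libraries left out in turn. At 25 vs 13 DPA the FDR was 0.0433, but the change did not reach the fold limit. The gene was a DEG there, lower at 25 DPA, with total counts, with both limma fits and without 25 DPA replicate 2. At 19 vs 13 DPA the stages overlapped on this scale (FDR 0.792). In the deposited FPKM the 19 DPA libraries, at 26.5 to 43.3, lay below those of 13 DPA, at 50.2 to 57.5. With total counts that step was no DEG call either.

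FtPinG0003629700.01, the F3'H gene next in level over all libraries, had 3.51, 3.88 and 3.08 scaled FPKM at 13 DPA, 6.70, 9.09 and 5.50 by 19 DPA and 20.5, 12.4 and 15.7 by 25 DPA. No library of a later stage was as low as any library of an earlier one on this scale. In the deposited FPKM 19 DPA (5.33 to 6.66) overlapped 13 DPA (5.08 to 5.64). The gene rose at 19 vs 13 DPA (log2 fold change 1.02, SE 0.25, FDR 0.0362), at 25 vs 19 DPA (1.19, SE 0.25, FDR 0.00606) and at 25 vs 13 DPA (2.22, SE 0.26, FDR 0.000215). The rise at 19 vs 13 DPA was not a DEG call with total counts, the 6 libraries of the pair or either limma fit. Nor was it one without 13 DPA replicate 1 (FDR 0.122), 13 DPA replicate 3 (0.108), 19 DPA replicate 1 (0.0727), 19 DPA replicate 2 (0.117) or 25 DPA replicate 3 (0.0556). The rise at 25 vs 19 DPA fell below the fold limit without 19 DPA replicate 3 or 25 DPA replicate 1, at FDR of 0.0252 and 0.0238. It also did so with total counts and both limma fits. The call at 25 vs 13 DPA was lost only with limma on log2(FPKM + 1).

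FtPinG0003629500.01, whose model is the shortest among the tested F3'H genes at 680 bases, had 1.33, 0.957 and 0.703 scaled FPKM at 13 DPA, 4.26, 1.48 and 3.26 by 19 DPA and 8.63, 8.14 and 9.34 by 25 DPA. Its stages did not overlap on this scale either, although replicate 2 at 19 DPA lay just above 13 DPA. In the deposited FPKM that library, at 1.08, lay below all those of 13 DPA, at 1.25 to 2.14. The rise was 3.12 on the log2 scale at 25 vs 13 DPA (SE 0.43, FDR 0.000422), 1.59 at 19 vs 13 DPA (SE 0.42, FDR 0.0428) and 1.53 at 25 vs 19 DPA (SE 0.40, FDR 0.016). The first step lost its call with total counts, the 6 libraries of the pair and both limma fits. It also lost it without any 1 library other than 19 DPA replicate 2, at FDR of 0.0654 to 0.125. The second step lost its call with total counts (FDR 0.0858).

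FtPinG0001470600.01 was not a DEG in any comparison in the edgeR fit with TMM and all libraries. It had 4.41, 5.37 and 2.43 scaled FPKM at 13 DPA, 5.59, 9.55 and 22.2 by 19 DPA and 4.05, 2.83 and 7.67 by 25 DPA, with FDR of 0.0988 for 19 vs 13 DPA, 0.0779 for 25 vs 19 DPA and 0.720 for 25 vs 13 DPA. Its highest value came from 1 library, replicate 3 at 19 DPA, with 776 counts. It became a DEG with DESeq2 at 19 vs 13 DPA and 25 vs 19 DPA, and at 25 vs 19 DPA also with total counts, with both limma fits and without 19 DPA replicate 1.

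The summed level of the F3'H class depended on the scaling. It was 43.9 ± 5.46, 61.9 ± 15.8 and 49.7 ± 1.86 scaled FPKM at 13, 19 and 25 DPA (SD, n = 3 each), but 68.3 ± 4.50, 53.8 ± 6.17 and 36.0 ± 2.35 in the deposited FPKM. The makeup of the class shifted on either scale. FtPinG0002353900.01 held 39.6 ± 11% of the class at 25 DPA, against 80.4 ± 2.42% at 13 DPA, and was between them at 19 DPA with 62.3 ± 14.1% (SD, n = 3 each). The rising pair FtPinG0003629500.01 and FtPinG0003629700.01 together held 50.3 ± 9.21% at 25 DPA, against 10.2 ± 0.425% at 13 DPA. Such a share lies within a library and does not depend on the scaling between libraries.

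The F3'5'H class was carried by 1 gene at every stage, and both of its tested genes fell at 25 vs 19 DPA. FtPinG0006940000.01 had 10, 14.6 and 5.01 scaled FPKM at 13 DPA, 13.0, 27.6 and 9.89 by 19 DPA and 6.01, 8.34 and 2.51 by 25 DPA. Each library of 25 DPA lay below each library of 19 DPA, whereas 25 DPA and 13 DPA overlapped on this scale. In the deposited FPKM the 25 DPA libraries, at 1.64 to 6.57, lay below those of 13 DPA, at 9.06 to 19.1. The log2 fold change at 25 vs 19 DPA was -1.58 (SE 0.55, FDR 0.0478). The call was lost without 13 DPA replicate 1 (FDR 0.0678), 19 DPA replicate 1 (0.0719), 19 DPA replicate 2 (0.161), 25 DPA replicate 1 (0.109) or 25 DPA replicate 3 (0.129), and without the count filter. The FDR was 0.408 for 19 vs 13 DPA and 0.236 for 25 vs 13 DPA. At 25 vs 13 DPA the gene became a DEG, lower at 25 DPA, with total counts and with both limma fits.

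FtPinG0003628500.01, the F3'5'H gene of the study's RT-qPCR, was lower and showed the clearest fall of the hydroxylases. It had 2.13, 2.58 and 1.82 scaled FPKM at 13 DPA, 2.45, 1.35 and 1.35 by 19 DPA and 0.197, 0.105 and 0.0844 by 25 DPA, the last from 5, 3 and 2 counts. All libraries of 25 DPA were far below the others, and 13 and 19 DPA overlapped on this scale (FDR 0.609). In the deposited FPKM the 19 DPA libraries, at 0.986 to 2.37, lay below those of 13 DPA, at 3.28 to 3.43. At 19 vs 13 DPA the gene became a DEG, lower at 19 DPA, with total counts and with limma on log2(FPKM + 0.1). The fall was -3.70 on the log2 scale at 25 vs 19 DPA (SE 0.46, FDR 0.000926) and -4.04 at 25 vs 13 DPA (SE 0.46, FDR 0.000203), and both calls held under every alternative that was run. The class summed to 12.3 ± 4.82, 18.6 ± 9.24 and 6 ± 3.15 scaled FPKM at 13, 19 and 25 DPA (SD, n = 3 each). In the deposited FPKM it summed to 18.5 ± 4.53, 15.8 ± 5.19 and 4.50 ± 2.64. The class mean was thus highest at 19 DPA on the scaled values only. The share of FtPinG0006940000.01 in it was 94.1 ± 2.96% at 25 DPA and 78.1 ± 9.80% at 13 DPA.

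**Figure D2:**
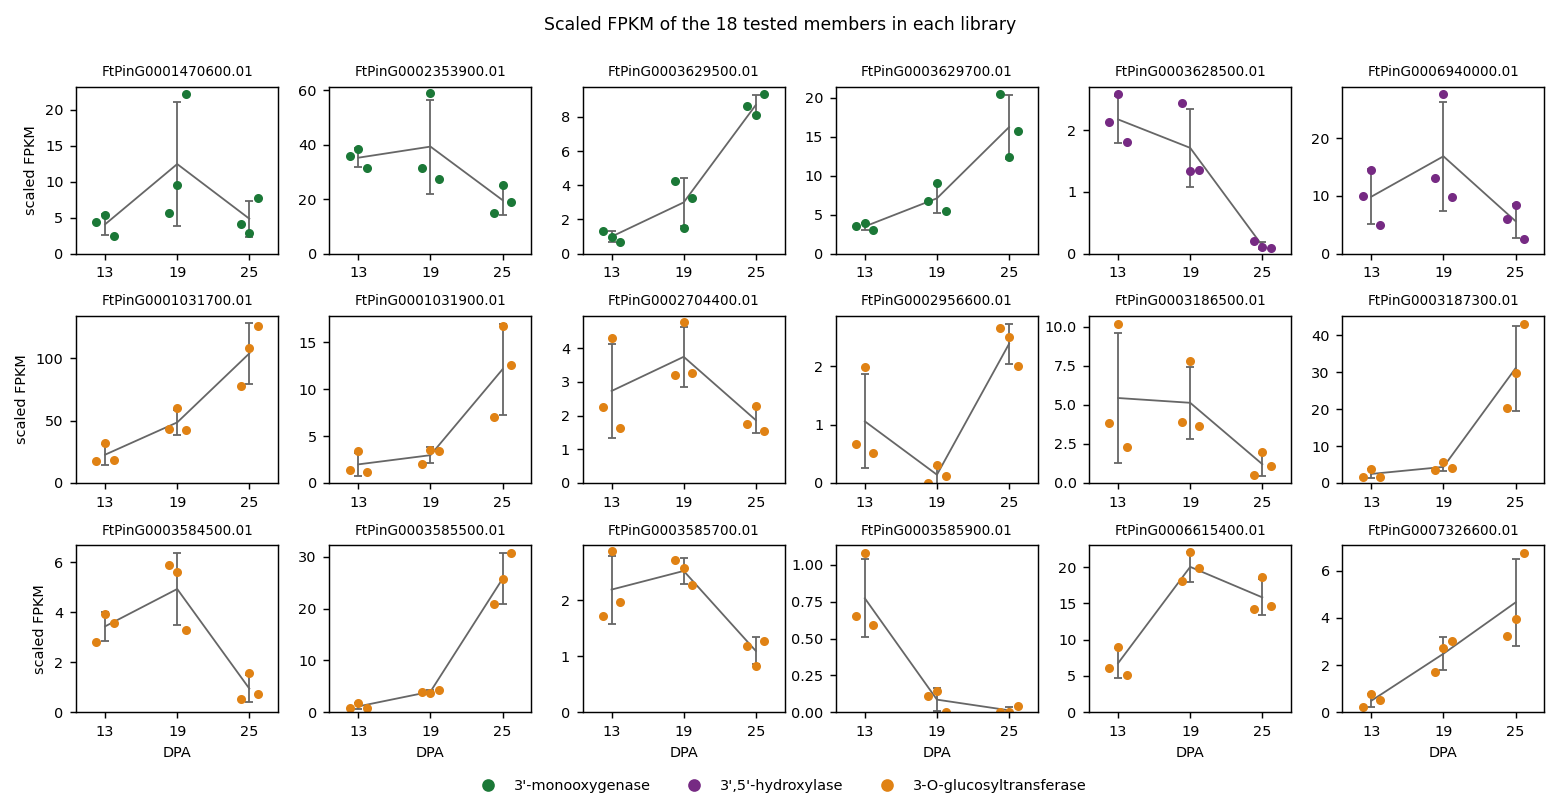
Scaled FPKM (vertical axis, starting at 0 and drawn to each gene's own range) of the 18 tested members at 13, 19 and 25 DPA. Points are libraries with replicates 1 to 3 from left to right, colored by class, and gray lines join the stage means with their SD (n = 3). FtPinG0001031700.01 reaches 126 scaled FPKM at 25 DPA, the highest value of any member, and FtPinG0003628500.01 drops to 0.197 or less.

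The UFGT genes split by direction. Of the 12 tested, 6 were higher and 3 lower at 25 than at 13 DPA (all genes, 16.6% and 25.6%), and 5 were higher and 3 lower at 25 than at 19 DPA (all genes, 9.27% and 19.5%). The lower genes were near the share of all genes in each case. The most abundant of them, FtPinG0001031700.01, had 17.3, 32.3 and 18.5 scaled FPKM at 13 DPA, 43.5, 59.8 and 42.4 by 19 DPA and 77.8, 108 and 126 by 25 DPA. The stages did not overlap on this scale. In the deposited FPKM 19 DPA (41.2 to 43.8) overlapped 13 DPA (27.8 to 42.3). The gene rose by 2.20 on the log2 scale at 25 vs 13 DPA (SE 0.31, FDR 0.000455), and this call held under every alternative. The single steps were each 1.10 (SE 0.30), with FDR of 0.0483 for 19 vs 13 DPA and 0.0177 for 25 vs 19 DPA. Both steps lost their call with total counts and with both limma fits. The call of the first step was also lost without the count filter and with the 6 libraries of the pair. For 19 vs 13 DPA it was also lost without any 1 library other than 13 DPA replicate 2, at FDR of 0.0543 to 0.183, and for 25 vs 19 DPA without 19 DPA replicate 1 (0.0667), 19 DPA replicate 3 (0.0722) or 25 DPA replicate 3 (0.0598).

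FtPinG0003585500.01 had the largest fitted rise of any member. Its libraries held 0.840, 1.80 and 0.787 scaled FPKM at 13 DPA, 3.88, 3.66 and 4.39 by 19 DPA and 20.9, 25.7 and 30.7 by 25 DPA. The stages were well apart, with a log2 fold change of 4.50 at 25 vs 13 DPA (SE 0.35, FDR 7.88e-05), 2.69 at 25 vs 19 DPA (SE 0.32, FDR 0.00081) and 1.81 at 19 vs 13 DPA (SE 0.32, FDR 0.0142). The later comparisons held under every alternative, and 19 vs 13 DPA lost its call without 13 DPA replicate 1 (FDR 0.0648) and with limma on log2(FPKM + 1).

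FtPinG0003187300.01 stayed low until 19 DPA and was high only at 25 DPA, with 1.74, 3.86 and 1.72 scaled FPKM at 13 DPA, 3.48, 5.56 and 4 by 19 DPA and 20.2, 29.8 and 43.1 by 25 DPA. The stages of 13 and 19 DPA overlapped (FDR 0.217). Without 13 DPA replicate 2 the gene became a DEG at that step, higher at 19 DPA. Its log2 fold change was 2.84 at 25 vs 19 DPA (SE 0.40, FDR 0.00138) and 3.67 at 25 vs 13 DPA (SE 0.42, FDR 0.000205). FtPinG0001031900.01 had the same order of stages at a lower level, with 1.38, 3.42 and 1.16 scaled FPKM at 13 DPA, 2, 3.51 and 3.39 by 19 DPA and 7.07, 16.8 and 12.6 by 25 DPA. It rose by 2.04 at 25 vs 19 DPA (SE 0.48, FDR 0.01) and by 2.62 at 25 vs 13 DPA (SE 0.49, FDR 0.00186), with an FDR of 0.485 for 19 vs 13 DPA. The calls of both genes held under every alternative.

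In 2 further UFGT genes the step called was the first one. FtPinG0007326600.01 had 0.208, 0.754 and 0.506 scaled FPKM at 13 DPA, 1.70, 2.73 and 3.00 by 19 DPA and 3.25, 3.97 and 6.74 by 25 DPA. It rose by 2.34 at 19 vs 13 DPA (SE 0.49, FDR 0.0226) and by 3.24 at 25 vs 13 DPA (SE 0.50, FDR 0.000735), and the step at 25 vs 19 DPA was not called (FDR 0.145). The call at 19 vs 13 DPA was lost without 13 DPA replicate 1 (FDR 0.0709), 13 DPA replicate 3 (0.0679), 19 DPA replicate 2 (0.0638) or 19 DPA replicate 3 (0.0563). That call was also lost with limma on log2(FPKM + 1).

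FtPinG0006615400.01 was highest at discoloration, with 6.14, 9.03 and 5.11 scaled FPKM at 13 DPA, 18.1, 22.1 and 19.9 by 19 DPA and 14.2, 18.7 and 14.6 by 25 DPA. On this scale both later stages lay above all libraries of 13 DPA and overlapped each other (FDR 0.272). In the deposited FPKM 25 DPA (9.53 to 14.7) overlapped 13 DPA (9.23 to 11.8) and lay below 19 DPA (16.2 to 19.3). The log2 fold change was 1.57 at 19 vs 13 DPA (SE 0.24, FDR 0.01) and 1.23 at 25 vs 13 DPA (SE 0.24, FDR 0.00222). It was the member whose call at 19 vs 13 DPA held whichever library was left out. Neither of its calls held with total counts or with either limma fit.

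The UFGT genes with a fall stayed at 10.2 scaled FPKM or less in every library. FtPinG0003584500.01 had 2.81, 3.94 and 3.57 scaled FPKM at 13 DPA, 5.92, 5.61 and 3.28 by 19 DPA and 0.537, 1.57 and 0.739 by 25 DPA. The 25 DPA libraries lay below all others, with a log2 fold change of -2.36 at 25 vs 19 DPA (SE 0.45, FDR 0.00393) and -1.84 at 25 vs 13 DPA (SE 0.44, FDR 0.00655), and both calls held under every alternative. At 19 vs 13 DPA the FDR was 0.468.

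FtPinG0003186500.01 had 3.81, 10.2 and 2.31 scaled FPKM at 13 DPA, 3.93, 7.81 and 3.68 by 19 DPA and 0.515, 2 and 1.10 by 25 DPA. Replicate 2 was the highest at each stage. The log2 fold change was -2.08 at 25 vs 19 DPA (SE 0.66, FDR 0.0335) and -2.16 at 25 vs 13 DPA (SE 0.66, FDR 0.0202), and the FDR was 0.951 for 19 vs 13 DPA. The call at 25 vs 13 DPA was lost without 13 DPA replicate 2 (FDR 0.0705), 25 DPA replicate 1 (0.0672) or 25 DPA replicate 3 (0.0643), and that at 25 vs 19 DPA without 19 DPA replicate 1 (0.0553), 19 DPA replicate 2 (0.0923), 25 DPA replicate 1 (0.102) or 25 DPA replicate 3 (0.0955).

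FtPinG0003585700.01 had 1.72, 2.88 and 1.98 scaled FPKM at 13 DPA, 2.72, 2.58 and 2.27 by 19 DPA and 1.19, 0.822 and 1.27 by 25 DPA. It was lower at 25 than at 19 DPA (log2 fold change -1.20, SE 0.35, FDR 0.0231), a call lost without 19 DPA replicate 1 (FDR 0.0729), 25 DPA replicate 1 (0.0506) or 25 DPA replicate 2 (0.076). That call was also lost with limma on log2(FPKM + 1). At 25 vs 13 DPA the FDR was 0.0336 but the fold limit was not reached, and at 19 vs 13 DPA the FDR was 0.744. At 25 vs 13 DPA the gene became a DEG with total counts, DESeq2, no count filter, both limma fits and some libraries left out.

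FtPinG0003585900.01 had 41, 59 and 38 counts at 13 DPA, 4, 4 and 0 by 19 DPA and 0, 0 and 1 by 25 DPA. It was lower at 19 than at 13 DPA by a log2 fold change of -3.17 (SE 0.85, FDR 0.047), which lost its call whichever library was left out, at FDR of 0.066 to 0.132. That call was also lost without the count filter and with the 6 libraries of the pair. At 25 vs 13 DPA the ratio of scaled counts was 0.0161 (95% exact counting interval 0.000405 to 0.0912, FDR 0.00261), and this call held under every alternative. The FDR for 25 vs 19 DPA was 0.173.

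FtPinG0002956600.01, a short model of 387 bases, dipped at discoloration, with 10, 26 and 8 counts at 13 DPA, 0, 2 and 1 by 19 DPA and 17, 18 and 12 by 25 DPA. The ratio of scaled counts at 25 vs 19 DPA was 18.8 (95% exact counting interval 6.05 to 94.4, FDR 0.00751), a call that held under every alternative. The FDR was 0.0752 for 19 vs 13 DPA, where the gene became a DEG, lower at 19 DPA, with total counts, DESeq2 and both limma fits. For 25 vs 13 DPA the FDR was 0.167, and without 13 DPA replicate 2 the gene became a DEG, higher at 25 DPA. These intervals cover counting error only.

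FtPinG0002704400.01 was not a DEG in any comparison in the edgeR fit with TMM and all libraries. It had 2.25, 4.30 and 1.64 scaled FPKM at 13 DPA, 3.20, 4.78 and 3.26 by 19 DPA and 1.76, 2.29 and 1.55 by 25 DPA, with FDR of 0.514 for 19 vs 13 DPA, 0.0774 for 25 vs 19 DPA and 0.277 for 25 vs 13 DPA. It became a DEG, lower at 25 DPA, with total counts and limma on log2(FPKM + 0.1) at 25 vs 19 and 25 vs 13 DPA, with limma on log2(FPKM + 1) at 25 vs 13 DPA, and at 25 vs 19 DPA with the 6 libraries of the pair or without 13 DPA replicate 2.

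Summed over the class, UFGT transcripts were at 51.3 ± 21.1, 99.1 ± 17.1 and 201 ± 46.3 scaled FPKM at 13, 19 and 25 DPA (SD, n = 3 each), and the stages did not overlap. In the deposited FPKM the sums were 77.5 ± 18.9, 86.7 ± 0.658 and 145 ± 30.0, and 13 and 19 DPA overlapped. FtPinG0001031700.01 held a similar part of this at every stage, 44.7 ± 2.85%, 48.9 ± 1.55% and 51.6 ± 0.704%. The genes FtPinG0003187300.01 and FtPinG0003585500.01 together held 28.1 ± 2.33% at 25 DPA and 6.83 ± 0.558% at 13 DPA.

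**Figure D3:**
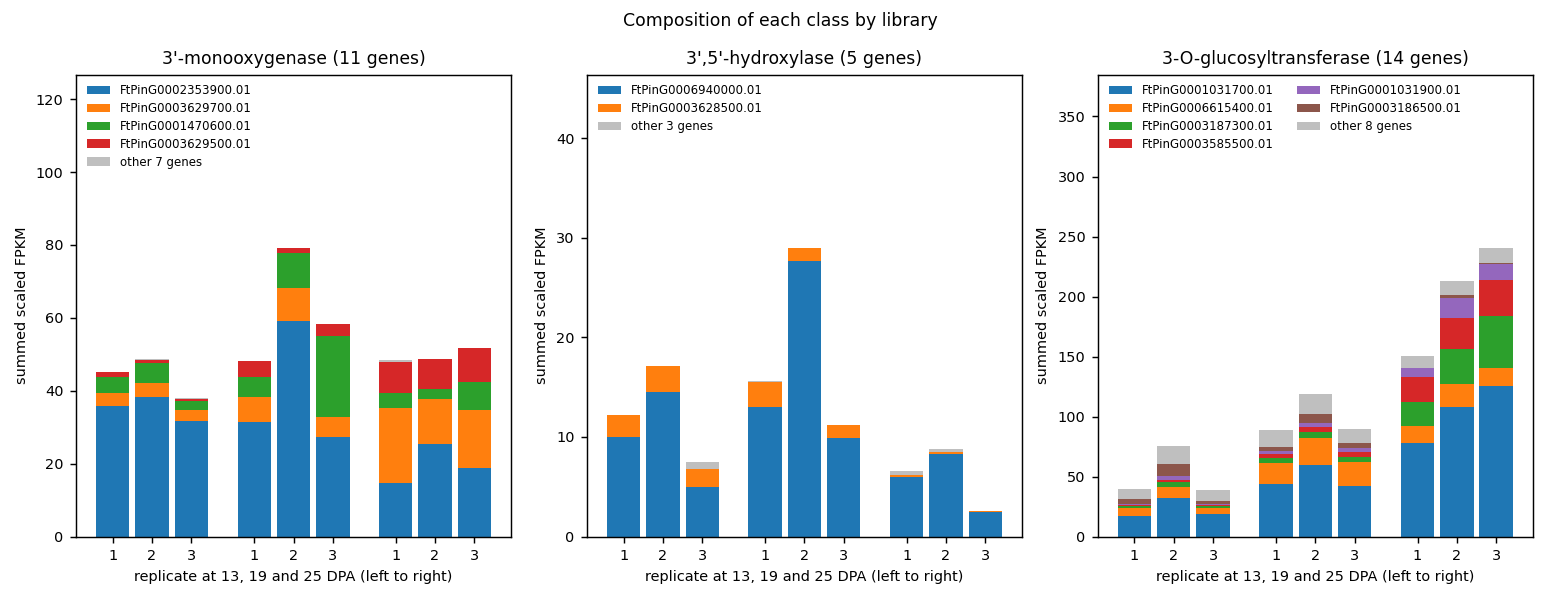
Summed scaled FPKM (vertical axis, stacked bars) of each class in the 9 libraries, with the most abundant genes of the class in color and the others in gray. Replicates 1 to 3 of 13, 19 and 25 DPA run from left to right. The F3'H bars stay between 38.0 and 79.2, the leading F3'H gene is lowest at 25 DPA, and the UFGT bars reach 150 to 241 at 25 DPA.

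The balance between the listed classes shifted towards the glucosyltransferases. The UFGT sums leave out FtPinG0006606900.01, the study's RT-qPCR UFGT gene, which is not in its list. Green fruit libraries gave this gene a mean of 129 deposited FPKM, above the 77.5 of all listed UFGT genes together. Initial maturity libraries gave it a mean of 67.7, against 145 for the listed genes. Its deposited FPKM exceeded the listed sum in each library of 13 DPA (91.3 to 186 against 63.7 to 99.1). In each library of 25 DPA it was below that sum (48.8 to 82.4 against 111 to 167). The shift would therefore be smaller with this gene included, and by how much was not tested. Hydroxylases of both classes summed to 56.2 ± 10.2, 80.6 ± 24.1 and 55.7 ± 1.69 scaled FPKM at 13, 19 and 25 DPA, or to 86.8 ± 5.08, 69.6 ± 8.87 and 40.5 ± 4.96 in the deposited FPKM. A ratio within a library does not depend on that choice. The log2 ratio of summed UFGT to summed hydroxylase FPKM within a library was 1.45, 1.88 and 2.15 at 25 DPA, against -0.53, 0.20 and -0.24 at 13 DPA, with 0.47, 0.13 and 0.37 at 19 DPA. The mean difference of 25 minus 13 DPA was 2.01. Without the leading gene of each class it was 0.37. In sums chosen after seeing the data, it was 1.82 without the UFGT gene FtPinG0001031700.01 alone, and 0.56 without the hydroxylase genes FtPinG0002353900.01 and FtPinG0006940000.01 alone. The remaining hydroxylases summed to 30.4 ± 5.62 scaled FPKM at 25 DPA and 11.1 ± 2.04 at 13 DPA, and the remaining UFGT genes to 97.2 ± 22.1 at 25 DPA and 28.6 ± 12.9 at 13 DPA (SD, n = 3 each). The genes of these shares and ratios were chosen with their levels known, and the exact permutation test of 3 libraries against 3 cannot go below a p of 0.1, so they are given as a description without a test.

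Members with neighboring identifiers shared a direction in some cases and not in others. In all, 22 of the 30 members fell into 5 runs in which each identifier number lay within 2000 of the next. Whether such genes lie side by side in the genome was not analysed here, and the treatment of reads that match several similar genes is not given in the sources used here, so the split of reads between close copies is uncertain. In the run of 10 members beginning at FtPinG0003628300.01, the F3'H genes FtPinG0003629500.01 and FtPinG0003629700.01 rose at 25 vs 13 DPA, the F3'5'H gene FtPinG0003628500.01 fell, and the other 7 were too low to test. In the UFGT run of 4 members beginning at FtPinG0003584500.01, FtPinG0003585500.01 rose while FtPinG0003584500.01 and FtPinG0003585900.01 fell. The run of FtPinG0001031700.01 and FtPinG0001031900.01 was one in which both rose. In the run of FtPinG0001470600.01, no member was a DEG in the edgeR fit with TMM, and 2 of the 3 were too low to test.

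The UFGT genes FtPinG0003187300.01 and FtPinG0003186500.01, of a further run, also moved apart. The log2 ratio of FPKM of FtPinG0003187300.01 over FtPinG0003186500.01 was 5.30, 3.90 and 5.29 at 25 DPA, against -1.13, -1.40 and -0.43 at 13 DPA, and -0.18, -0.49 and 0.12 at 19 DPA. FtPinG0003186500.01 was thus the more abundant of the pair in all libraries of 13 DPA, and FtPinG0003187300.01 in all libraries of 25 DPA. The mean difference of 25 minus 13 DPA was 5.81, a description since the pair was chosen for it.

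**Figure D4:**
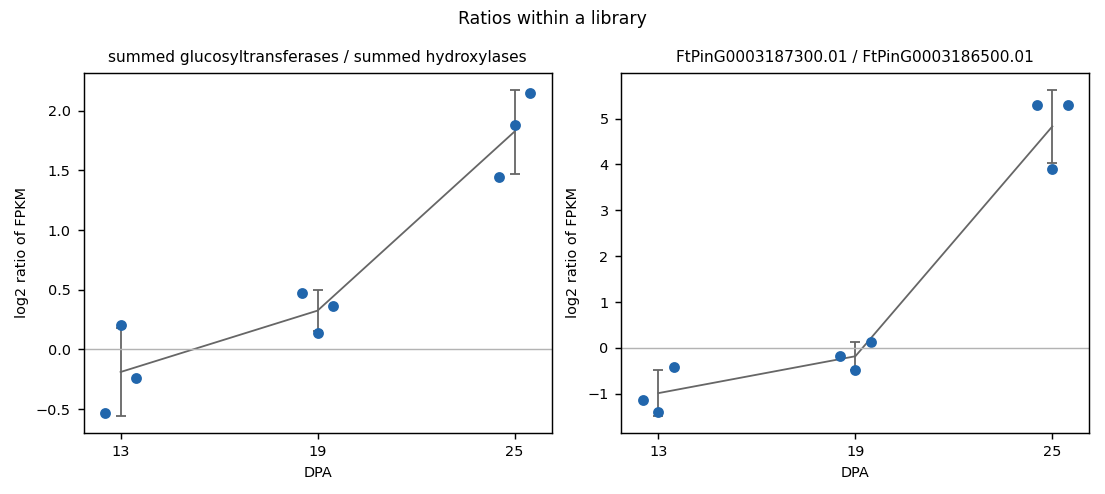
Log2 ratios of FPKM within each library (vertical axes) at 13, 19 and 25 DPA, for summed UFGT over summed hydroxylase genes on the left and for FtPinG0003187300.01 over FtPinG0003186500.01 on the right. Points are libraries and gray lines join stage means with their SD (n = 3). At 25 DPA the ratios are 1.45 to 2.15 and 3.90 to 5.30, above all libraries of 13 and 19 DPA.

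Earlier enzymes of the pathway are needed to make the substrates of these genes. The study's other flavonoid genes, 20 genes for phenylalanine ammonia-lyase, cinnamate 4-hydroxylase, 4-coumarate CoA ligase, chalcone synthase, chalcone isomerase, flavonol synthase and 1 more UFGT, included 16 that were tested. Of these 16, 1 was a DEG at 19 vs 13 DPA, higher at 19 DPA, which is near the 8.57% of all genes. At 25 vs 19 DPA 9 were DEGs, 1 higher (all genes, 9.27%) and 8 lower (all genes, 19.5%). At 25 vs 13 DPA 12 were DEGs, 2 higher (all genes, 16.6%) and 10 lower (all genes, 25.6%). Their median log2 fold change at 25 vs 13 DPA was -1.43 with TMM and -2.51 with total counts. Over all libraries, the most abundant chalcone synthase gene, for the first committed step, was FtPinG0008131000.01, which had a log2 fold change of -2.03 (SE 0.56, FDR 0.013) at 25 vs 13 DPA. The most abundant flavonol synthase gene, FtPinG0006907100.01, had -1.05 (SE 0.35, FDR 0.0305). Both were named after their values were seen. The additional UFGT gene, FtPinG0006606900.01, which the study chose for RT-qPCR and which is not in its list, was no DEG in any comparison (FDR 0.712 for 19 vs 13 DPA, 0.774 for 25 vs 19 DPA and 0.821 for 25 vs 13 DPA). Its deposited FPKM was 48.8 to 82.4 at 25 DPA and 91.3 to 186 at 13 DPA, while that of the leading listed UFGT gene FtPinG0001031700.01 was 57.4 to 85.2 at 25 DPA and 27.8 to 42.3 at 13 DPA.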

How the data were processed

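RNA-seq was performed on 9 seed libraries, 3 per stage. The counts per gene were deposited by the authors, made from trimmed paired-end reads mapped to the Tartary buckwheat genome Pinku1 with Bowtie2 2.0.6 and TopHat2 2.0.12 per their processing notes. The FPKM values deposited by the authors match those counts divided by gene length and library total, with no scaling factor. How strand and multiply matching reads were treated in counting is not given in the sources used here. Totals were 22002318 to 25811462 counts, so members of a few counts are imprecise.

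Counts were tested in R 4.3.3 with edgeR 4.0.16 (TMM, filterByExpr, robust quasi-likelihood test, all 9 libraries, no block), and FDR was Benjamini-Hochberg over 23609 genes. The SE is the size of the log2 fold change divided by the square root of F. The DEG limits were FDR 0.05 and a log2 fold change of 1 or more in size, and the fold limit was read from a sentence the study's methods leave unfinished. Scaled FPKM is the deposited FPKM times total over effective library size. Full values are given for members with a DEG call, values and FDR for other tested members, and counts for the rest. The members and lists were chosen with earlier results of these data known.

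Alternatives were RLE factors, total counts, DESeq2 1.42.0, no count filter, the 6 libraries of a pair, the replicate block, no fold limit, limma 3.58.1 on log2(FPKM + 1) and log2(FPKM + 0.1), and each library left out. Shares and ratios were repeated on counts, without leading genes or with 0.1 added. Across 23609 genes, deviations from the stage mean of same-numbered libraries of 19 and 13 DPA correlated with r of 0.353, 0.494 and 0.590 (different numbers, -0.478 to -0.111). Same-numbered libraries of these stages were thus alike. Whether the number marks the plant or something else they share was not tested. The scripts were tested on simulated data. Ratios used pandas 2.3.3 and numpy 2.4.6 in Python 3.11.15, intervals and exact tests scipy 1.17.1, and figures matplotlib 3.10.9.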

Additional observations from a re-analysis of the deposited data

How the results depend on the processing

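Over all calls of members and their alternatives, 484 of 576 checks kept the call, 92 lost it and 0 turned its direction. The alternative with no fold limit reuses the main fit, so it could not lose a call. The DEGs among the members at 19 vs 13 DPA numbered 7, but 3 with the 6 libraries of the pair alone, 2 with limma on log2(FPKM + 1), and 1 to 6 with a library left out. At 25 vs 19 DPA they numbered 13, and 8 to 14 with a library left out. The other alternatives gave 5 to 9, 11 to 14 and 12 to 15 for the 3 comparisons. With the replicate block they were 7, 13 and 12. The block changed no call at 19 vs 13 DPA or 25 vs 13 DPA, and at 25 vs 19 DPA FtPinG0002353900.01 lost its call and FtPinG0002704400.01 gained one. There and at 25 vs 13 DPA the numbers did not pair the libraries (r of 0.0258 to 0.197 and -0.0279 to 0.133 for the same number).

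With 1 library left out, the difference of 25 minus 13 DPA was -46.9 to -36.3 percentage points for the class share of FtPinG0002353900.01, 10.4 to 19.5 for FtPinG0006940000.01 and 5.88 to 8.55 for FtPinG0001031700.01. It was 1.84 to 2.21 for the log2 ratio of summed UFGT to hydroxylase FPKM and 5.58 to 6.28 for that of FtPinG0003187300.01 to FtPinG0003186500.01. On counts without gene length, the share of FtPinG0001031700.01 differed by 3.14 in place of 6.93 points. Members with fewer than about 10 counts per stage were limited by depth.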
